A study of Mus musculus with 2 samples.

Results

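Pitx1, Pitx3, Lbx1, Meox1, Meox2 and Barx2 are 6 homeobox transcription factor genes of limb, somite and muscle progenitor development. They were taken by symbol from a table of 23235 gene symbols, and were selected on their FPKM in WT and KO and the log2 ratio between them, with earlier results of this comparison known. Their differences are therefore given as a description. The study compared cultures grown from hind limb and back muscle of neonatal mice and labelled as activated satellite cells, the stem cells of skeletal muscle. The WT group is labelled wild type. In the Pax7 KO group, Pax7, a paired-box and homeobox factor of these cells, had been deleted with Pax7CreER, a tamoxifen-inducible Cre driven by the Pax7 gene, acting on a Pax7flox/flox allele. Tamoxifen was given at 75 µg per g of body weight from day 5 on 5 consecutive days, per the labels' protocols. Whether the WT animals carried either allele or received tamoxifen, and how many animals went into a culture, the sources used here do not give. The Cre acts in cells that express Pax7, so other cells of the cultures would keep the gene. There were 2 polyA RNA-seq libraries, 1 per genotype, so every difference below is one between these libraries, with no replicate check and no p-value.

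Homeobox genes encode transcription factors that bind DNA through the homeodomain, a fold whose last helix reads the bases. In vertebrate muscle they mark where a progenitor came from and which step it has reached. Lbx1 acts in precursors that migrate into the limb, Meox1 and Meox2 act in the somite and limb muscle, Pitx1 sets hindlimb identity, and Pitx3 acts in muscle differentiation. Barx2 is expressed in mouse satellite cells and myoblasts. Several of these genes have other tissues too: Pitx3 in lens and midbrain neurons, Meox2 in vascular cells and Lbx1 in the dorsal spinal cord.

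The DNA that encodes the homeodomain is shown for the members with the largest differences, Pitx3, Pitx1 and Lbx1, and for Meox2, which had the highest level. Each is the 180-base homeobox of a mouse transcript (GENCODE M21, GRCm38), 5′ to 3′. The capitals mark the codons of the recognition-helix signature, by which the homeobox was found.
Pitx3: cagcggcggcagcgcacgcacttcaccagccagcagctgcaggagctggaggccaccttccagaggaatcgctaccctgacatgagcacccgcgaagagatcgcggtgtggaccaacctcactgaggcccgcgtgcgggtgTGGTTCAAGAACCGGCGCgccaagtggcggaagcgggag
Pitx1: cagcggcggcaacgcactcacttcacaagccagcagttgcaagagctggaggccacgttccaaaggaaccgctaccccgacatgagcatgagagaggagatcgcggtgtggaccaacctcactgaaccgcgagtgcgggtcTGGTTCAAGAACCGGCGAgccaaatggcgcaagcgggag
Lbx1: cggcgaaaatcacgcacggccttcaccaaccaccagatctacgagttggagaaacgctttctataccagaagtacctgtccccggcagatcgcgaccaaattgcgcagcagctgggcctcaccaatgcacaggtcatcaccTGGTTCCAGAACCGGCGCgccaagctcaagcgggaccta
Meox2: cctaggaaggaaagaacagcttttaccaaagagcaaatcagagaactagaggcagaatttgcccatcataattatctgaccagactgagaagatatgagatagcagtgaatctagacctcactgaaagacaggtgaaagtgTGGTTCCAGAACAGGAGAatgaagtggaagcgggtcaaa
The third codon in capitals, codon 50 of the homeodomain, decides much of the DNA preference. It was AAG (lysine) in Pitx1 and Pitx3, as in factors of the bicoid type, and CAG (glutamine) in Lbx1, Meox1, Meox2 and Barx2. The homeoboxes of Pitx1 and Pitx3 were identical at 158 of 180 bases (87.8%), and those of Meox1 and Meox2 at 138 (76.7%). Lbx1 was 49.4% to 56.1% identical to the other 5 members. Over whole transcripts, the longest run of bases that Pitx1 shared exactly with Pitx3 was 29 bases, and no window of 50 bases occurred in both. The sources used here give no read length.

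Levels are deposited FPKM (fragments scaled by transcript length and by library size), which can be compared between genes because they are per length. All 6 members were listed above the lowest value of the table, 0.001. Of the 6, 5 had a mean of both libraries of 1 FPKM or more, the limit used here for counting a gene. Barx2 did not. In WT the order was Meox2 (5.39 FPKM), Pitx3 (4.39), Lbx1 (2.85), Meox1 (2.76), Pitx1 (1.83) and Barx2 (0.371). In KO it was Meox2 (7.89 FPKM), Pitx1 (5.59), Meox1 (3.07), Lbx1 (0.909), Pitx3 (0.688) and Barx2 (0.470). Pitx3 went from the second place to the fifth and Pitx1 from the fifth to the second, while Meox2 stayed first and Barx2 last. By counting intervals, the WT order is not resolved in 3 places: Meox2 (4.81 to 6.0 FPKM) overlapped Pitx3 (3.74 to 5.16 FPKM), and Lbx1 (2.16 to 3.63 FPKM) overlapped both Meox1 (2.35 to 3.23 FPKM) and Pitx1 (1.5 to 2.19 FPKM). In KO, Lbx1 (0.544 to 1.5 FPKM), Pitx3 (0.412 to 1.04 FPKM) and Barx2 (0.289 to 0.730 FPKM) overlapped. These are 95% exact Poisson intervals from fragments estimated from the values, about 25500000 in the WT library and 21500000 in the KO library. They hold only if the assumed transcript lengths are right, and they cover counting error only. Had a library been rescaled, its estimated number of fragments would be off as well. The 6 levels summed to 17.6 FPKM in WT against 18.6 FPKM in KO.

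**Figure D1:**
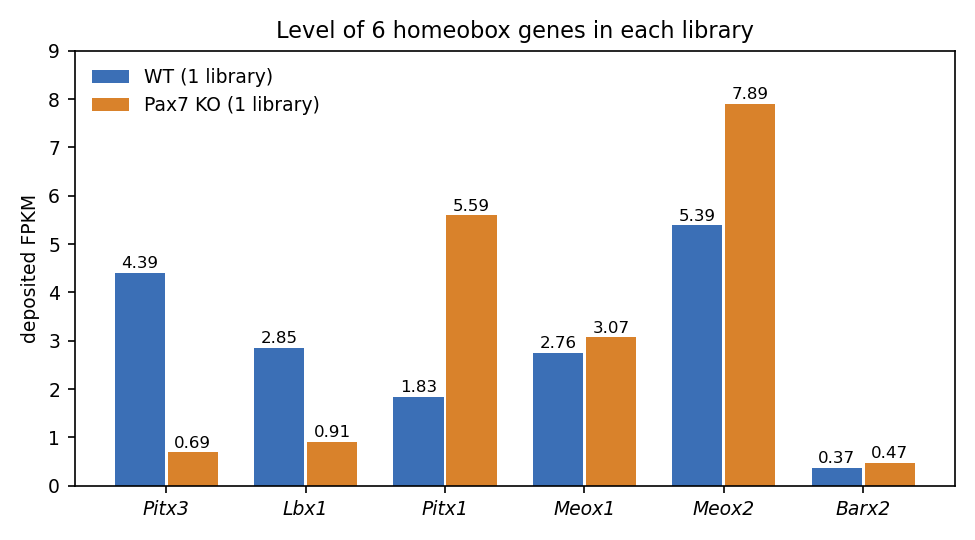
Deposited FPKM of the 6 genes in the WT library (blue) and the Pax7 KO library (orange); each bar is 1 library, so there is no error bar. Pitx3 and Lbx1 were higher in WT, Pitx1 was higher in KO, and Meox1, Meox2 and Barx2 differed by less than 1.5-fold.

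Across the table, FPKM tended to be higher in KO. Differences are given as the log2 ratio, log2((KO FPKM + 1) / (WT FPKM + 1)), which understates the change of low genes. The median of the 11751 genes of mean FPKM 1 or more was 0.42, and 11.4% of those genes had the higher FPKM in WT. Values "relative to the median gene" have 0.42 subtracted. As deposited, 0.689% of the genes were lower in KO by 2-fold or more and 5.06% higher by as much. Relative to the median gene these shares were 1.45% and 1.35%, and without the pseudocount 1.00% and 10.2%. Pax7 itself was at 3.21 FPKM in WT against 0.769 FPKM in KO, 4.17-fold lower, which goes with the label, and the value covers the whole gene rather than the deleted part. Muscle progenitor markers were present in both libraries, and 6 of the 10 above the limit were lower by 2-fold or more (Pax7, Myf5, Myod1, Cdh15, Fgfr4 and Chrna1), with none higher. The 11 markers listed summed to 393 FPKM in WT against 239 FPKM in KO. Markers of other cell types were present in both libraries, none of them at the lowest listed value. The summed level of 8 endothelial markers was 350 FPKM in WT against 678 FPKM in KO, of 10 fibroblast and fibro-adipogenic markers 182 and 287 FPKM, and of 8 smooth muscle and pericyte markers 875 and 963 FPKM. That of 8 adipocyte markers was 242 and 1204 FPKM, of 8 epidermal markers 10.5 and 71.5 FPKM, and of 4 tendon markers 8.64 and 5.32 FPKM. In the smooth muscle and pericyte sum, Acta2 alone was at 626 FPKM in WT against 642 FPKM in KO. Of those 8 markers, 2 were higher by 2-fold or more (Rgs5 and Kcnj8) and none was lower by as much. The median log2 ratio of these 8 was 0.31. In such bulk libraries fewer cells of a type and less RNA per cell cannot be told apart.

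As deposited, 2 of the 5 members that passed the limit were lower in KO by 2-fold or more (Pitx3 and Lbx1), 1 was higher by as much (Pitx1) and 2 were within 2-fold (Meox1 and Meox2). Relative to the median gene, with the pseudocount kept, 2 were lower and none higher. Without the pseudocount, as deposited, 2 were lower and 1 higher. Members were picked with this contrast known, so nothing is read from these counts against the shares over all genes. The authors' deposited table of lower genes, which holds 1.64% of all rows, includes Pitx3 and Lbx1, and their deposited table of higher genes, with 3.07% of all rows, includes Pitx1. How these tables were called is not stated. They rest on the same libraries.

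**Figure D2:**
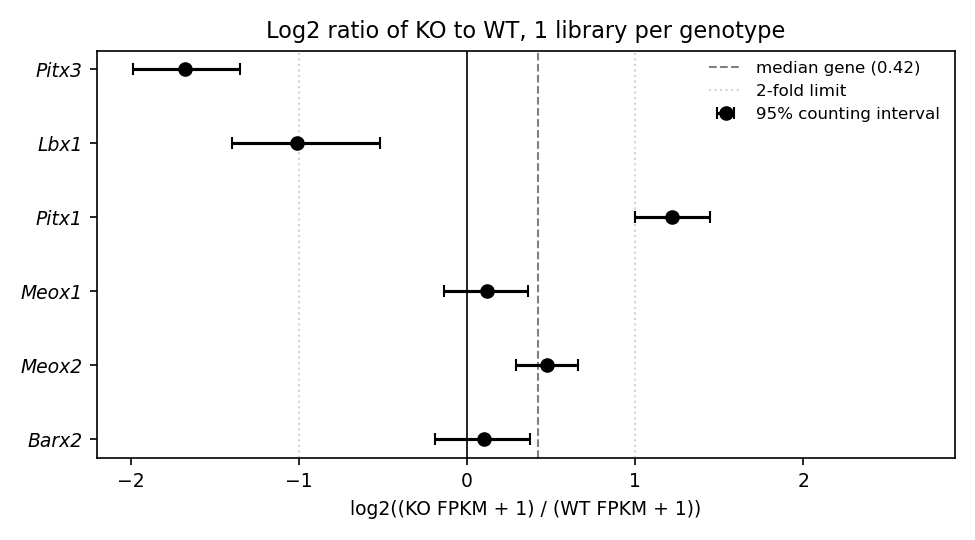
Log2 ratio of KO to WT of the 6 genes (points) with 95% counting intervals (bars), which cover counting error only. The dashed line is the median gene at 0.42 and the dotted lines the 2-fold limit; Pitx3 and Lbx1 lie left of 0, and the interval of Meox2 includes the median gene. That of Barx2, a gene at under 1 FPKM, is narrowed by the pseudocount.

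Pitx3 had the largest difference of the 6. The gene (listed locus chromosome 19, 46206389 to 46222815, mm9) was at 4.39 FPKM in WT against 0.688 FPKM in KO, about 155 and 20 fragments. It was 6.39-fold lower in KO. The log2 ratio was -1.68, with a counting interval of -1.98 to -1.35, and -2.10 relative to the median gene. Of the 11751 genes counted, 42 had a lower ratio. Its level lay at percentile 41.3 of those genes in WT and at percentile 0.451 in KO. The listed locus of Pitx3 is shared with Elovl3, a fatty acid elongase gene, which was at 0.498 FPKM in WT against 0.522 FPKM in KO. Elovl3 differed little, and the sum of both rows was 4.89 FPKM in WT against 1.21 FPKM in KO, a log2 ratio of -1.41. In GENCODE M21 the genes lie on opposite strands and overlap by 10 bases. The sources used here do not say whether the counting used strand, so reads in the overlap cannot be assigned to one of them.

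The Pitx3 and Meox2 promoters are shown because sequences for these 2 members were found in the RefSeq promoter table. By ratio, Pitx3 lay lowest and Meox2 near the median gene. Myod1, an E-box-binding factor, was at 90.4 FPKM in WT against 17.9 FPKM in KO, and a link between it and Pitx3 was not tested. Each runs from 250 bases before to 50 after the gene's start (GRCm38.p6), 5′ to 3′ on the gene's strand. Capitals mark matches of 3 motifs: CAGCTG, an E-box, TAATCC, the bicoid-type homeodomain motif, and TAATTA, a homeodomain core motif. Pitx3 is at chr19:46148276-46148575 on the minus strand and Meox2 at chr12:37108290-37108589 on the plus strand.
Pitx3: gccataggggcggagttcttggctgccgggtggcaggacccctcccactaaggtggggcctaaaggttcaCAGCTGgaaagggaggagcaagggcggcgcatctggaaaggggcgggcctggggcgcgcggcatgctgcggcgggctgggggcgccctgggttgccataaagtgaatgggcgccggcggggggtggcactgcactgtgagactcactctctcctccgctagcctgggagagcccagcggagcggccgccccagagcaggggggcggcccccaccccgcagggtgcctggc
Meox2: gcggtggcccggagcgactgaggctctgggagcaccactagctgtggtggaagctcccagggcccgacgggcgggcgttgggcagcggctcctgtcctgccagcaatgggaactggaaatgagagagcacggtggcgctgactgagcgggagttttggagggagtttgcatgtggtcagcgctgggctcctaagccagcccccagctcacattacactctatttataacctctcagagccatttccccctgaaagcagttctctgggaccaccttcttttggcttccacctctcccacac
The Pitx3 window held 1 CAGCTG, starting 180 bases before the gene's start, and the Meox2 window held none. Of the 32851 promoters in the table, 16.3% held this motif on either strand. TAATCC, in 7.06% of all promoters, and TAATTA, in 5.29%, occurred in neither window. The looser E-box CANNTG, which includes CAGCTG, occurred 2 times in the Pitx3 window and once in the Meox2 window, and in 72.3% of all promoters. GGGCGG, the GC box, occurred 5 times in the Pitx3 window and once in the Meox2 window, and in 35.7% of all promoters. The GC content was 71.7% in the Pitx3 window and 60.7% in the Meox2 window, against a median of 52.7% over all promoters. A match is a stretch of letters and not a measured binding site, and the libraries give no binding data.

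Pitx1 went the other way. The gene (chromosome 13, 55926415 to 55932786, mm9) was at 1.83 FPKM in WT against 5.59 FPKM in KO, about 114 and 295 fragments. It was 3.06-fold higher in KO. The log2 ratio was 1.22, with a counting interval of 1.00 to 1.45, and 0.80 relative to the median gene, short of 2-fold. Computed without the pseudocount, the ratio relative to the median gene was 1.11, past 2-fold. Of the genes counted, 276 had a higher ratio. The row shares its locus with no other row. Tbx4, a T-box gene of the hindlimb that acts with Pitx1, was at 0.458 FPKM in WT against 0.588 FPKM in KO, and Tbx5, its forelimb counterpart, at 1.17 and 0.582 FPKM. Isl1, a LIM-homeobox gene that acts early in the hindlimb field, was at 0.552 FPKM in WT against 1.43 FPKM in KO. These 3 genes were under the expression limit. Hoxc10, a Hox gene of the hindlimb and lumbar level, was at 6.03 FPKM in WT against 6.42 FPKM in KO. Hoxc11, its neighbour in the cluster, was at 3.30 and 1.33 FPKM. In the same comparison, the 9 fibroblast and fibro-adipogenic markers above the limit had a median log2 ratio of 0.74, and the 8 endothelial markers one of 0.78. The part of either in the Pitx1 value was not tested. Per unit of Pdgfra, a receptor of fibro-adipogenic cells, Pitx1 was at 0.669 in WT and 1.10 in KO, 1.64-fold higher. Per unit of Cdh5, an endothelial cadherin, it was at 0.0177 and 0.0330, 1.86-fold higher. Against Prrx1, another gene of the fibroblast and fibro-adipogenic list, Pitx1 was 2.39-fold higher in KO. Against Hoxc10 it was 2.87-fold higher, and against Tbx4, a gene under the limit, 2.38-fold. The size of the Pitx1 difference thus depends on the reference gene.

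Between Pitx1 and Pitx3, whose homeoboxes are alike, the balance was reversed. Pitx3 made up 70.6% of their summed FPKM in WT and 11.0% in KO, and Pitx1 29.4% and 89.0%. These shares are set within each library and do not depend on how the libraries were scaled. Pitx3 was 2.40 times the level of Pitx1 in WT, while Pitx1 was 8.13 times the level of Pitx3 in KO. The summed level of both genes was 6.22 FPKM in WT against 6.28 FPKM in KO.

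**Figure D3:**
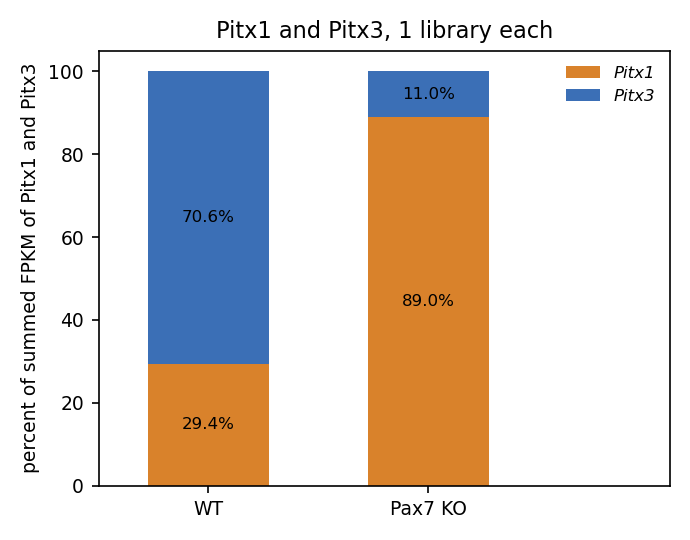
Percent of the summed FPKM of Pitx1 and Pitx3 held by each gene in the WT and the Pax7 KO library, 1 library each. Pitx3 falls from 70.6% to 11.0% and Pitx1 goes from 29.4% to 89.0%.

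Lbx1, the ladybird-type gene of migrating limb muscle precursors, was the other lower member. The gene (chromosome 19, 45308218 to 45309726, mm9) was at 2.85 FPKM in WT against 0.909 FPKM in KO, 3.13-fold lower. The log2 ratio was -1.01, just past the 2-fold limit, and -1.43 relative to the median gene. The values rested on about 61 and 17 fragments. The counting interval of the log2 ratio was -1.40 to -0.52, so counting error alone reaches to within 2-fold. The listed locus spans 1509 bases, shorter than the GENCODE M21 transcript of 2484 bases, and the fragments were therefore estimated from the coding length of 846 bases. Its paralog Lbx2 was near the floor, at 0.151 FPKM in WT against 0.181 FPKM in KO, about 3 fragments each. Met, the HGF receptor that limb muscle precursors need to migrate, was at 12.2 FPKM in WT against 8.04 FPKM in KO, a log2 ratio of -0.54. Pax3, which acts upstream of Lbx1 in the mouse embryo, was at 0.254 FPKM in WT against 0.256 FPKM in KO.

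Pitx3 and Lbx1 were compared with muscle genes inside each library, a ratio that does not depend on scaling. Per unit of Myod1, the myogenic determination factor, Pitx3 was at 0.0486 in WT and 0.0383 in KO, and Lbx1 at 0.0315 and 0.0507. Per unit of Cdh15, M-cadherin of satellite cells, Pitx3 was at 0.245 and 0.109, and Lbx1 at 0.159 and 0.145. Per unit of Pax7, Pitx3 was at 1.37 and 0.895, and Lbx1 at 0.887 and 1.18. Lbx1 thus differed by 1.61-fold or less from WT to KO against these 3 genes. Pitx3 differed by 1.27-fold against Myod1, 1.53-fold against Pax7 and 2.24-fold against Cdh15. All 3 reference genes were themselves lower in KO by 2-fold or more. Against Des, the muscle intermediate filament gene, which was at 75.8 FPKM in WT against 67.6 FPKM in KO, Pitx3 was 5.70-fold lower. Des itself was 1.12-fold lower in KO and Lbx1 3.13-fold lower, so Lbx1 was lower against Des as well. The reference gene decides these ratios, and the part of muscle cell content in the 2 lower members was not tested.

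Meox1 and Meox2, the mesenchyme homeobox genes of the somite, lay within 2-fold. Meox2 (chromosome 12, 37835133 to 37906115) was at 5.39 FPKM in WT against 7.89 FPKM in KO, about 324 and 400 fragments. It was 1.47-fold higher, with a log2 ratio of 0.48 and a counting interval of 0.29 to 0.66. Relative to the median gene the ratio was 0.06. Meox1 (chromosome 11, 101738824 to 101755668) was at 2.76 FPKM in WT against 3.07 FPKM in KO, with a log2 ratio of 0.12 and a counting interval of -0.14 to 0.36. Relative to the median gene it was at -0.30, so the direction of Meox1 turns with the scaling. Meox2 was 1.96 times the level of Meox1 in WT and 2.57 times in KO. Meox2 is also expressed in vascular cells, and per unit of Cdh5 it was at 0.0521 in WT and 0.0465 in KO. Per unit of Pdgfrb, a receptor of pericytes, it was at 0.184 and 0.155. The part of vascular cells in the Meox2 value was not tested. Cdkn1a, a cell cycle inhibitor gene that MEOX factors activate in human endothelial cells, was at 98.9 FPKM in WT against 163 FPKM in KO, a log2 ratio of 0.72. Cdkn2a, another such inhibitor gene, was at 3.05 and 3.15 FPKM.

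Barx2, a Bar-class gene, was the member under the expression limit. The gene (chromosome 9, 31653629 to 31720870) was at 0.371 FPKM in WT against 0.470 FPKM in KO, on about 19 and 20 fragments. Without a pseudocount the log2 ratio was 0.34, with a counting interval of -0.66 to 1.31. The interval includes 0 as well as a 2-fold higher level, so a difference was not detectable at this depth. With the pseudocount the ratio was 0.10, and -0.32 relative to the median gene. Its paralog Barx1 was at 0.146 FPKM in WT against 0.227 FPKM in KO. Axin2, a Wnt target gene used as a readout of the pathway with which Barx2 is linked in mouse muscle, was at 0.577 and 0.927 FPKM.

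Set against the rest of the homeobox superfamily, the 3 members with the largest differences stood at its ends. The members were selected on these same values, so their places are a description and nothing is read from them. Of 216 homeobox symbols listed, 212 were in the table and 76 had a mean FPKM of 1 or more. Of these 76, 3 were at least 2-fold lower (Pitx3, Pax7 and Lbx1), 3 at least 2-fold higher (Pitx1, Nkx6-2 and Hlx) and 70 within 2-fold. The share was 3.95% in each direction, against 0.689% lower and 5.06% higher over all counted genes. Without the members, 1 of 71 was lower, the targeted Pax7, and 2 were higher. The median log2 ratio of the 76 was 0.10, against 0.42 for all genes, and 54 of the 76 lay below the median gene. Without the members it was 0.08, with 51 of 71 below the median gene. Relative to the median gene, 7 of the 76 were lower by 2-fold or more and none higher, against 1.45% and 1.35% of all counted genes.

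Pitx3 had the lowest log2 ratio of the 76, Lbx1 the third lowest, and Pitx1 the highest. The place of Pitx1 depends on the pseudocount, since by FPKM alone Nkx6-2 was 6.21-fold higher and Pitx1 3.06-fold. Ordered by level, Pitx3 went from rank 18 in WT to rank 76 in KO, Lbx1 from rank 31 to rank 74, and Pitx1 from rank 53 to rank 18. Meox2 was at rank 13 in WT and rank 10 in KO, and Meox1 at rank 34 in both. Next after Lbx1 from the low end was Hoxc11. Below Pitx1 from the high end were Nkx6-2, Hlx, Hhex, Zhx1 and Hoxd9. Hlx and Hhex were at 11.1 and 3.69 FPKM in WT and at 23.7 and 7.90 FPKM in KO. Both are also known from endothelial and blood lineages. The endothelial markers had a median log2 ratio of 0.78, and of 0.36 relative to the median gene. The part of endothelial cells in the Hlx and Hhex values was not tested. Nkx6-2 was at 0.327 FPKM in WT against 2.03 FPKM in KO, but its locus is shared with Inpp5a, a phosphatase gene, and summed over the locus the log2 ratio was 0.91. The 5 most abundant homeobox genes were Tgif1, Prrx1, Cux1, Hlx and Zeb1. Tgif1, a TALE-class repressor, was at 72.0 FPKM in WT against 81.3 FPKM in KO, and Prrx1, a factor of limb mesenchyme, at 18.3 and 23.3 FPKM. Meox2, the most abundant member, stood far below Tgif1 in each library.

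**Figure D4:**
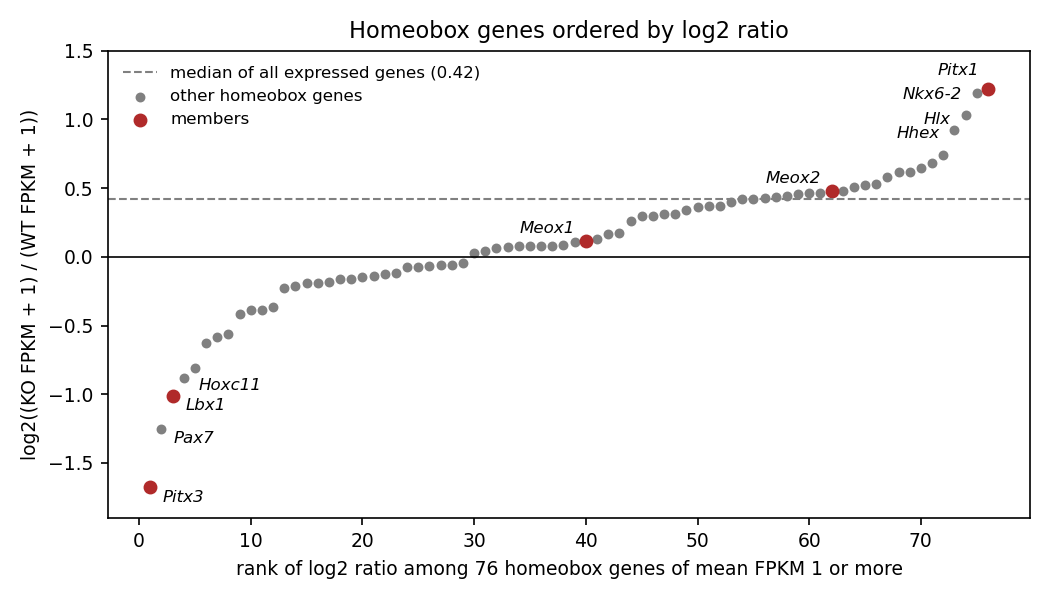
Log2 ratio of KO to WT (y axis) of the 76 homeobox genes of mean FPKM 1 or more, ordered by that ratio (x axis); members are red, other homeobox genes grey, and the dashed line is the median of all counted genes. Pitx3 (-1.68) and Lbx1 (-1.01) lie at the low end with Pax7, and Pitx1 (1.22) at the high end, while Meox1 and Meox2 lie inside. The members were selected on these values.

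Genes linked to the members in muscle were then described from a list of 22, chosen with earlier results known. Of these, 14 passed the expression limit, of which 3 were lower by 2-fold or more, 1 was higher by as much and 10 were within 2-fold. Over all counted genes, 0.689% were lower and 5.06% higher by as much. Given how the list was chosen, nothing is read from these counts. The median log2 ratio of the 14 was -0.24. The lower ones were Myf5, Myod1 and Pax7. Myf5, the other early determination factor, was at 14.8 FPKM in WT against 1.58 FPKM in KO. The higher one was Cxcr4, a chemokine receptor of migrating precursors that endothelial cells also express, at 56.3 and 135 FPKM. Myog, the factor of terminal differentiation, was at 2.56 FPKM in WT against 1.44 FPKM in KO. Of 17 limb and somite positional genes, 8 were above the limit, none was at least 2-fold lower (0.689% of all counted genes) and 1 was higher (5.06%). That gene was Tcf15, a somite factor also found in endothelial cells, at 1.49 FPKM in WT against 4.63 FPKM in KO. The part of endothelial cells in the Cxcr4 and Tcf15 values was not tested. Hoxa10, Prrx1, Shox2 and Tbx18 had log2 ratios of 0.42, 0.34, 0.31 and 0.25, so that each was at or below the median gene to 2 decimals.

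The genes whose pair of log2(FPKM + 1) values lay nearest to a member were looked up among genes with a locus of their own. With 2 libraries this likeness rests on 2 values. For Pitx3 the nearest were St8sia2, a polysialyltransferase gene (5.20 FPKM in WT against 1.06 FPKM in KO, distance 0.35), and Pax7 (distance 0.36), and no gene lay within a distance of 0.25. For Lbx1 they were Drp2, a dystrophin-related gene (2.95 and 0.970 FPKM), and Fndc3c1 (3.03 and 0.876 FPKM), with 14 genes within 0.25. For Pitx1 they were Cib2, which encodes a calcium-binding protein (1.81 and 5.70 FPKM), and Cda, cytidine deaminase (1.68 and 5.56 FPKM), with 31 genes within 0.25. For Meox1 and Meox2, 337 and 469 genes lay within 0.25. The nearest were Mll1, a histone methyltransferase gene, and Pigm for Meox1, and Tbc1d9b and Ptgr2 for Meox2.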

How the data were processed

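Expression was measured by polyA RNA-seq in 1 library of WT and 1 of Pax7 KO cultured muscle progenitors. Per the file headers, the authors deposited FPKM for each library and lists of higher and lower genes whose fold is the ratio of KO FPKM to WT FPKM. The submitters' processing notes list the mm9 build and the tools Cuffdiff 2.1.1, Cufflinks 2.1.1 and TopHat2 2.0.9, without roles. The members and all gene lists were chosen with earlier results of these data known.

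From the deposited FPKM, log2 ratios with a pseudocount of 1 were computed for each symbol (23236 rows, with the rows of the 1 repeated symbol summed). Genes of mean FPKM 1 or more were counted, past a 2-fold limit. No count test or p-value was possible with 1 library per genotype. Depth was estimated as the number of fragments at which FPKM times transcript length lay nearest whole numbers. The genes had 1 transcript of more than 1500 bases and a locus of their own, and 1628 were detected in WT and 1572 in KO. Only those with an implied count of a few fragments were scored, so the estimate rests on fewer genes. The mean cosine was 0.54 in WT and 0.57 in KO, where exact multiples give 1, so counting intervals (95%, exact Poisson for levels, exact Clopper-Pearson for ratios) are approximate. The depth and interval steps were tested on simulated data made with the same transcript lengths, so that test does not cover wrong lengths. Starts were read as counted from 0, since end minus start equalled the RefSeq gene length at 6923 of 17032 loci and fell 1 short at 436.

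Named genes were the members, their paralogs and locus partners, up to 6 homeobox genes at each end of the ratios and the 5 most abundant, up to 6 genes of largest change in 2 further lists, and the 2 genes nearest in pattern to each member. Some genes that this rule names are not reported here. Tbx4, Tbx5, Isl1, Hoxc10, Met, Pax3, Cdkn2a, Axin2, Myog and the marker genes were picked with their values known. The settings tried were summed loci, a 1.5-fold limit, a minimum mean FPKM of 5 or none, scaling on the upper quartile or on the median gene, and pseudocounts of 0.5 and 0.1. Leaving out the pseudocount was a setting chosen after seeing the data. The software was matplotlib 3.10.9, scipy 1.17.1, pandas 2.3.3, numpy 2.4.6 and Python 3.11.15.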

Additional observations from a re-analysis of the deposited data

How the results depend on the processing

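Of 80 values recomputed under other settings, 46 stayed within their interval or within 1.5 times the count and 34 moved further. Pitx1, Pitx3 and Lbx1, the members past the 2-fold limit, kept their direction. A pseudocount cannot reverse a direction, and a shift of 0.42 is smaller than these ratios, so nothing is read from that. With a pseudocount of 0.1 the log2 ratios of Pitx1, Pitx3 and Lbx1 were 1.56, -2.51 and -1.55, and 5 homeobox genes were at least 2-fold lower and 5 higher. With a pseudocount of 0.5 Pitx3 was at -2.04. Without a pseudocount, a setting chosen after seeing the data, the ratios of Pitx1, Pitx3 and Lbx1 were 1.61, -2.67 and -1.65, and 5 homeobox genes were lower and 6 higher. Centring on the median gene gave 0.80 for Pitx1, -2.10 for Pitx3, -1.43 for Lbx1, -0.30 for Meox1, 0.056 for Meox2 and -0.32 for Barx2. It left 0 members and 0 homeobox genes at least 2-fold higher, with 7 homeobox genes lower and a homeobox median of -0.33. These centred values keep the pseudocount of 1, and without it Pitx1 was at 1.11 relative to the median gene. Upper-quartile scaling gave 0.80 for Pitx1, -0.25 for Meox1 and 0.038 for Meox2, with 0 members and 0 homeobox genes higher, 6 homeobox genes lower and a homeobox median of -0.27. With a mean FPKM of 5 or more, 0 members were lower and 0 higher, since Meox2 is the member above that level, and 0 homeobox genes were lower and 1 higher. At a 1.5-fold limit 7 homeobox genes were lower and 9 higher. The cause of the other moves was not tested.

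The main limits are 1 library per genotype, an unknown scaling between the libraries, and low levels: Lbx1, Pitx3 and Barx2 rested on about 17, 20 and 20 fragments in KO. No paired analysis was possible because each genotype has 1 library.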

Other observations

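Lbx1 and Pitx3, the 2 lower members, lie on the same chromosome, a comparison chosen after their values were seen. Their listed loci are 896662 bases apart in mm9, where the locus listed for Pitx3 is the one shared with Elovl3. The 11 genes of mean FPKM 1 or more between them had a median log2 ratio of 0.40, with a range of -0.10 to 0.72, and none was 2-fold lower or higher. The 21 such genes within 500000 bases of Pitx3 had a median of 0.42 and the 10 around Lbx1 a median of 0.46, both near the median gene at 0.42. Around Pitx1, 19 genes had a median of 0.40 and a highest ratio of 0.88, against 1.22 for Pitx1. The 26 genes around Meox1 had a median of 0.41 and a range of -0.43 to 1.28, with 1 of them at least 2-fold higher. No gene of mean FPKM 1 or more lay within that distance of Meox2, and the 4 around Barx2 had a median of 0.12.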
